A study of Mus musculus with 9 samples.

Results

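The hepatic carboxylesterases are a family of serine hydrolases, and 10 of their genes are described here: the Ces1 genes Ces1b, Ces1c, Ces1d, Ces1e, Ces1f and Ces1g, the Ces2 genes Ces2a and Ces2e, and the Ces3 genes Ces3a and Ces3b. They were taken by name from a table of 27179 genes, which listed 20 genes of the family in all, and the Ces1 genes were set against the Ces2 and Ces3 genes. RNA sequencing was performed on frozen liver sections of female mice on a C57BL/6 background, with 5 libraries labelled Apoe-/- and 4 labelled Mif-2-/- Apoe-/-. All mice lacked apolipoprotein E and were fed a cholesterol-rich Western-type high-fat diet for 12 weeks from 8 weeks of age. The Mif-2-/- Apoe-/- mice additionally lacked MIF-2, a cytokine encoded by Ddt, and this deletion was germline and thus present in every cell type, not only in hepatocytes. The comparison asks which liver transcripts differ when MIF-2 is absent in atherogenic, hyperlipidemic mice.

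Carboxylesterases cleave ester, amide and thioester bonds, and most sit in the lumen of the endoplasmic reticulum. In liver they are known both for the hydrolysis of drugs and other foreign esters and for the turnover of triglycerides and cholesteryl esters, including the mobilization of stored triglyceride for very-low-density lipoprotein (VLDL) assembly. The mouse carries several tandem copies of genes for which humans have a single one, so related enzymes lie side by side on the chromosome.

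Total counts per library ranged from 2318148 to 10764182. Ddt, the deleted gene, was at 233 to 972 CPM (counts scaled to library size, TMM-normalized) in Apoe-/- and at 2.51 to 5.49 CPM in Mif-2-/- Apoe-/- libraries, which matched the labels. The hepatocyte markers, led by Alb and Apoa1, summed to 101668 to 316169 CPM in Apoe-/- and 86912 to 274167 CPM in Mif-2-/- Apoe-/- libraries, so both were liver. The 10 most abundant genes took 12.5 to 26.3% of the counts of a library. Apoe-/- replicate 5 was the lowest library of its genotype for 8 of the 10 carboxylesterases, and Mif-2-/- Apoe-/- replicate 3 for 7 of the 10. The labels do not state that each library was a separate mouse, so p-values measure the spread between these libraries.

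The 6 Ces1 genes lie on the minus strand of chromosome 8 within 0.281 Mb (chr8:93056728-93337308, GRCm38, GENCODE M21), and the 4 Ces2 and Ces3 genes lie on its plus strand within 0.36 Mb (chr8:104734003-105093929), 11.4 Mb away. Every one was counted on exons. Since the paralogs are alike, the share of each messenger RNA that another gene could claim was computed as the percentage of its 100-base stretches found identically elsewhere in the transcripts. Ces2e shared 0 of 2600 such stretches with any other gene, and Ces1d, Ces1e, Ces1f and Ces1g also shared 0. Ces1b and Ces1c shared 24 stretches with each other (1.29% and 1.39% of their lengths), Ces3a and Ces3b shared 177 (9.09% and 7.68%), and Ces2a shared 10.7% with the gene model Gm7208. The counts of Ces2a, Ces3a and Ces3b are therefore uncertain where reads could be split between copies. Coding sequences were 95.3% identical between Ces3a and Ces3b, 91.1% between Ces1b and Ces1c, and 83.8% between Ces2a and Ces2e.

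The family's kinship and its divergence can be read in the coding bases around the serine codon of the catalytic site. The 63 coding bases below (5′ to 3′, serine codon at bases 31 to 33) are shown for the genes on which the results turn, and capitals mark each base that differs from the most common base among the 10 genes.
Ces2e: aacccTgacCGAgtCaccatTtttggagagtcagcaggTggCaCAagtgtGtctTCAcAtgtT
Ces2a: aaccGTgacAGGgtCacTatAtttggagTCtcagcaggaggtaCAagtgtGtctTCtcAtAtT
Ces1c: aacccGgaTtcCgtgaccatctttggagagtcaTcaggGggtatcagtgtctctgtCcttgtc
Ces1b: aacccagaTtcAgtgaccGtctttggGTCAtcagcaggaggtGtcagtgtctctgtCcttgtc
Ces1d: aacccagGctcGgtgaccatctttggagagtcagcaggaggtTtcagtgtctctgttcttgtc
The serine codon is tca in all 5. Ces1d differs from the most common base at 3 positions, Ces1c at 6, Ces1b at 9, Ces2e at 16 and Ces2a at 18, while the Ces3 genes differ at 22 and use the serine codon tct. Since 6 of the 10 genes are Ces1 genes, the most common base leans toward Ces1, and these counts are not distances between subfamilies.

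Of the carboxylesterases, Ces2e differed most between the genotypes, and it was higher in Apoe-/- livers in each library. Ces2e (Entrez 234673, chr8:104926260-104934672), a microsomal esterase of liver and intestine, was at 187, 187, 184, 156 and 111 CPM in Apoe-/- replicates 1 to 5 and at 28.5, 47.1, 23.7 and 27.0 CPM in Mif-2-/- Apoe-/- replicates 1 to 4. The lowest Apoe-/- library was thus above the highest Mif-2-/- Apoe-/- library, and the genotypes did not overlap. The mean ± SD was 165 ± 32.9 CPM over the 5 libraries with MIF-2 and 31.6 ± 10.6 CPM over the 4 without it, a 5.23-fold difference. The log2 fold change of Apoe-/- over Mif-2-/- Apoe-/- was 2.39 (SE 0.34), with an adjusted p of 0.0116 by the edgeR quasi-likelihood test over all 16860 genes tested. DESeq2 gave 2.38 with an adjusted p of 2.71e-12. In an exact two-sided permutation test on log2(CPM + 0.5), p was 0.0079, the smallest that the 126 arrangements of 9 libraries can give. The counts behind these values were 391 to 1398 reads in Apoe-/- and 83 to 140 reads in Mif-2-/- Apoe-/- libraries. Fewer cells of a type and less RNA per cell cannot be told apart in such bulk tissue. The study itself singled out Ces2e among liver genes of interest from these libraries, so its direction is no independent evidence.

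All 10 carboxylesterases passed the filter on low counts, and 1 of the 10, Ces2e, was called at an adjusted p under 0.05 by edgeR, where 0.130% of all genes tested were called. DESeq2 also called 1 of the 10, Ces2e, against 4.93% of the 14686 genes to which it gave an adjusted p. Where DESeq2 percentages of all genes are given below, they are over these 14686 genes. The genotypes did not overlap for 1 of the 10, again Ces2e, against 4.26% of all genes. An unadjusted edgeR p under 0.05 was reached by 3 genes, Ces2e, Ces1c and Ces1d, against 15.5% of all genes. Of the log2 fold changes, 6 were above 0 and 4 below 0, while the median of all genes tested was -0.17. Relative to that median, Ces2e was higher by 2.56 on the log2 scale.

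**Figure D1:**
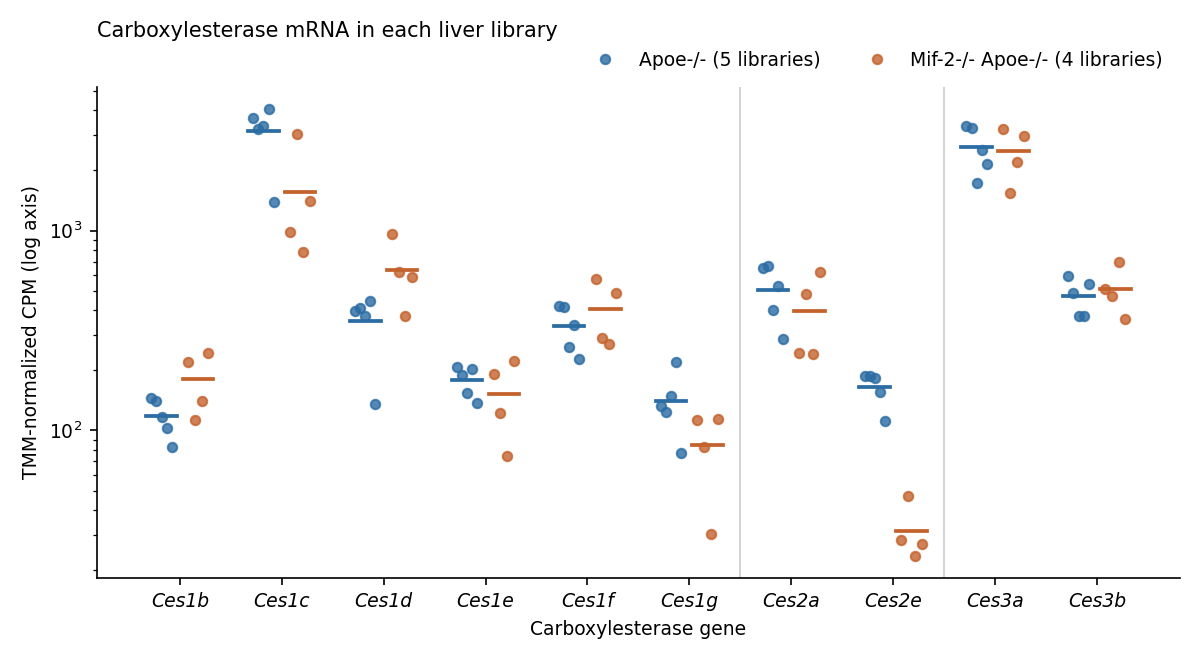
TMM-normalized CPM (log axis) of each carboxylesterase gene, with a point per library, a bar at the mean of each genotype, and grey lines between the Ces1, Ces2 and Ces3 genes. The 5 Apoe-/- libraries sit between 111 and 187 CPM for Ces2e, all above the 4 Mif-2-/- Apoe-/- libraries at 23.7 to 47.1 CPM, whereas the genotypes overlap for every other gene.

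Ces2a (Entrez 102022, chr8:104734003-104741634), the closest relative of Ces2e here and known to hydrolyse triglycerides and diglycerides in mouse liver, did not pass the test. It was at 647, 662, 400, 529 and 285 CPM in Apoe-/- and at 243, 479, 240 and 623 CPM in Mif-2-/- Apoe-/- libraries. The highest Mif-2-/- Apoe-/- library lay within the range of the Apoe-/- libraries, so the genotypes overlapped. The log2 fold change was 0.35 (SE 0.37, adjusted p = 0.699). Because both counts of a ratio come from the same library, a ratio does not depend on how libraries are scaled. The ratio of Ces2e to Ces2a counts was 0.289, 0.283, 0.458, 0.295 and 0.389 in Apoe-/- libraries and 0.117, 0.0983, 0.0986 and 0.0433 in Mif-2-/- Apoe-/- libraries. Each Apoe-/- library had a higher ratio than any Mif-2-/- Apoe-/- library, so these 2 genes of one cluster differed unequally between the genotypes.

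**Figure D2:**
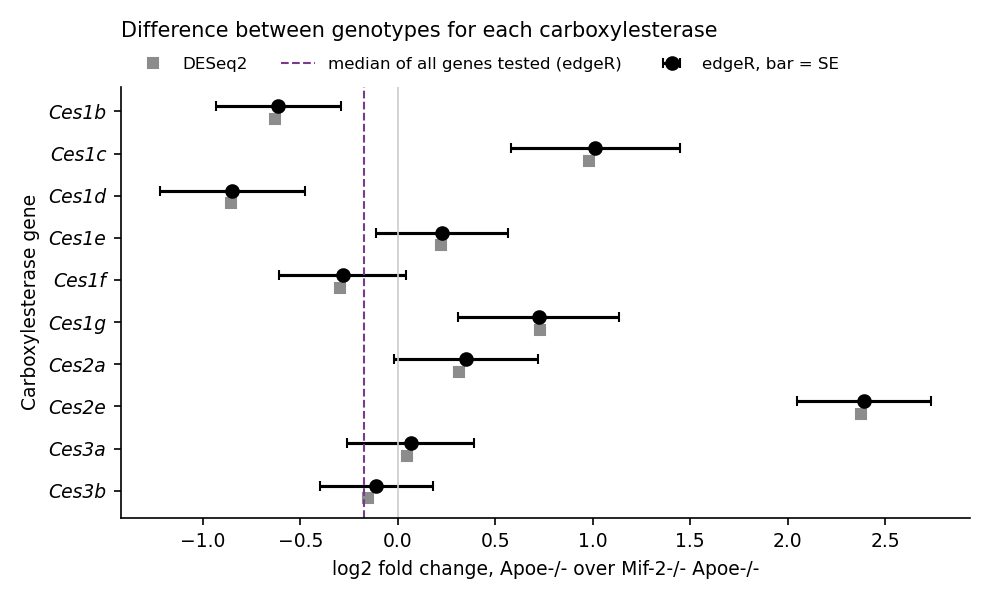
Log2 fold change of Apoe-/- over Mif-2-/- Apoe-/- for each carboxylesterase gene, as black points with the SE by edgeR and grey squares by DESeq2, beside the median of all genes tested (dashed, -0.17). Ces2e lies at 2.39, and the other 9 genes lie between -0.85 and 1.01.

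The bases upstream of Ces2e and Ces2a are shown because these 2 related genes gave unequal values. They are 250 bases before the start site of transcription from RefSeq (GRCm38.p6, plus strand, chr8:104926010-104926259 for Ces2e and chr8:104733753-104734002 for Ces2a), with capitals at a match to one of the motifs searched.
Ces2e: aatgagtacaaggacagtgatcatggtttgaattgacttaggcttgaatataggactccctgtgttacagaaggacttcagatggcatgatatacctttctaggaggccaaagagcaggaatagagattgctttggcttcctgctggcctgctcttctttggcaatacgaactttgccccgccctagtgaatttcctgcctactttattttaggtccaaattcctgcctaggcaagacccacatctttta
Ces2a: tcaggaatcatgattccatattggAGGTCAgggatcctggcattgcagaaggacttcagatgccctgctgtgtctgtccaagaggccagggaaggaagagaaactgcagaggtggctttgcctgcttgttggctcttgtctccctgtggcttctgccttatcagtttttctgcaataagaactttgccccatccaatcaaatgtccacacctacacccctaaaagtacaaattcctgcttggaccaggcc
The pair was 69.9% identical over 216 aligned bases. Of the motifs searched on both strands, Ces2a held 1 nuclear receptor core motif (AGGTCA, found in 16.3% of 32851 promoter windows) and Ces2e held none. The percentages are over whole promoter entries, which run past the start site and so cover more than the 250 bases shown. The other motifs were the E-box (CACGTG, 7.15%), a CEBP site (TTGCNNAAT, 2.40%), an HNF4 site (CAAAGTCCA, 0.475%), the TATA box (TATAAA, 13.6%) and the D-box (TTATGTAA, 0.938%, and its looser form TTANNTAA, 6.003%, which contains it). TATAAA was found in the windows of Ces1g and Ces3b. Such matches are runs of letters and not evidence of binding. The part of these motifs in the values of Ces2e and Ces2a was not tested.

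Among the Ces1 genes, 0 of 6 passed the adjusted threshold by either edgeR or DESeq2 (0.130% and 4.93% of all genes). An unadjusted edgeR p under 0.05 was reached by 2 of the 6, in opposite directions, against 15.5% of all genes. Ces1c, which encodes the esterase secreted into mouse plasma, was at 3672, 3215, 3332, 4056 and 1386 CPM in Apoe-/- and at 982, 3035, 784 and 1406 CPM in Mif-2-/- Apoe-/- libraries. Apoe-/- replicate 5 was among the Mif-2-/- Apoe-/- values and Mif-2-/- Apoe-/- replicate 2 was close to the Apoe-/- values, so the genotypes overlapped. The lowest Ces1c values were those of Apoe-/- replicate 5 and Mif-2-/- Apoe-/- replicates 1, 3 and 4. In these libraries the 10 most abundant genes took 14.7, 12.5, 13.3 and 17.0% of the counts, and in the others 20.5 to 26.3%. The part of this share in the Ces1c values was not tested. The log2 fold change was 1.01 (SE 0.43, p = 0.0339, adjusted p = 0.283 by edgeR), and the exact permutation p was 0.0635. Without Mif-2-/- Apoe-/- replicate 2 the log2 fold change was 1.66 with an adjusted p of 0.0607, and without Apoe-/- replicate 5 it was 1.20 with an adjusted p of 0.0958. It fell to 0.79, 0.84 and 0.97 without Mif-2-/- Apoe-/- replicates 3, 1 and 4 in turn (adjusted p of 0.523, 0.475 and 0.437 by edgeR).

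Ces1d, the triacylglycerol hydrolase that releases stored triglyceride for VLDL, had the opposite sign. It was at 394, 410, 375, 445 and 136 CPM in Apoe-/- and at 963, 617, 372 and 587 CPM in Mif-2-/- Apoe-/- libraries. Of the Mif-2-/- Apoe-/- libraries, replicate 3 lay within the Apoe-/- range and the other 3 lay above it. The log2 fold change was -0.85 (SE 0.37, p = 0.0378, adjusted p = 0.294 by edgeR), and the exact permutation p was 0.0794. Taken within a library, the ratio of Ces1d to Ces1c counts was 0.107, 0.128, 0.113, 0.110 and 0.0979 in Apoe-/- libraries and 0.981, 0.203, 0.475 and 0.418 in Mif-2-/- Apoe-/- libraries. The Apoe-/- ratios were nearly alike, and each was below the lowest Mif-2-/- Apoe-/- ratio. Apoe-/- replicate 5, which was low for both genes, had a ratio close to that of the other Apoe-/- libraries.

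**Figure D3:**
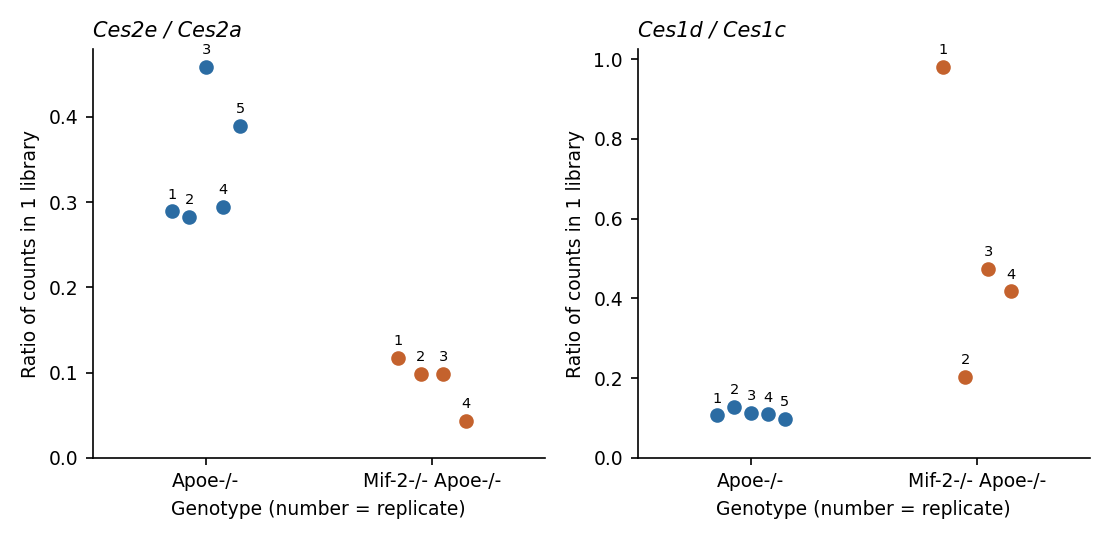
Ratio of counts within each library for Ces2e over Ces2a (left) and Ces1d over Ces1c (right), with a numbered point per replicate. The ratio of Ces2e to Ces2a is 0.283 to 0.458 in Apoe-/- and 0.0433 to 0.117 in Mif-2-/- Apoe-/- libraries, and the ratio of Ces1d to Ces1c is 0.0979 to 0.128 and 0.203 to 0.981.

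Ces1b, the gene next to Ces1c and its closest relative here, was at 146, 140, 117, 103 and 82.9 CPM in Apoe-/- and at 221, 113, 141 and 245 CPM in Mif-2-/- Apoe-/- libraries. The highest values were from Mif-2-/- Apoe-/- replicates 1 and 4, and replicates 2 and 3 overlapped with Apoe-/-. Its log2 fold change was -0.61 (SE 0.32, adjusted p = 0.374 by edgeR), against 1.01 for Ces1c. The ratio of Ces1b to Ces1c counts was 0.0253 to 0.0598 in Apoe-/- and 0.0372 to 0.225 in Mif-2-/- Apoe-/- libraries, which overlapped through Mif-2-/- Apoe-/- replicate 2.

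Ces1g, a lipid hydrolase whose loss in mice is known to raise liver and plasma lipids, was at 133, 124, 148, 220 and 76.9 CPM in Apoe-/- and at 113, 82.9, 30.2 and 114 CPM in Mif-2-/- Apoe-/- libraries. Apoe-/- replicate 5 fell among the Mif-2-/- Apoe-/- values and the other 4 were above them (log2 fold change 0.72, SE 0.41, adjusted p = 0.42). Ces1e, known as egasyn and a partner of beta-glucuronidase in the endoplasmic reticulum, was at 207, 191, 154, 203 and 138 CPM against 191, 123, 74.8 and 222 CPM. Ces1f, a second lipid-droplet triglyceride hydrolase, was at 422, 415, 262, 338 and 228 CPM against 571, 289, 270 and 490 CPM. Neither gene separated the genotypes (log2 fold changes 0.23 and -0.28, adjusted p = 0.799 and 0.727 by edgeR).

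Ces3a and Ces3b, a pair of adjacent liver esterases, showed the smallest differences of the family. Ces3a was at 3349, 3253, 1739, 2537 and 2158 CPM in Apoe-/- and at 3239, 1539, 2216 and 2967 CPM in Mif-2-/- Apoe-/- libraries. Ces3b was at 590, 488, 372, 374 and 541 CPM against 512, 472, 694 and 363 CPM. Both genotypes covered nearly the same range for each gene. The log2 fold changes were 0.07 (SE 0.33, adjusted p = 0.949) for Ces3a and -0.11 (SE 0.29, adjusted p = 0.897) for Ces3b, a sign that turned for Ces3b with TMMwsp size factors (0.07).

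The Ces1 genes as a group did not stand apart from the Ces2 and Ces3 genes. The median log2 fold change was -0.03 over the 6 Ces1 genes, 3 of them above and 3 below 0, and 0.21 over the 4 Ces2 and Ces3 genes, beside -0.17 over all genes tested. The Ces1 median lay near 0 and had no fixed sign, since it was above 0 under 10 of the 16 alternatives, among them TMMwsp size factors (0.17), the replicate block (0.14), the top 10 genes kept (0.067) and the filterByExpr filter (0.017). Summed per length, the Ces1 genes were at 861 to 2274 CPM per kb of exon in Apoe-/- and 695 to 1803 CPM per kb in Mif-2-/- Apoe-/- libraries, and the Ces2 and Ces3 genes at 1045 to 1848 and 991 to 1546 CPM per kb. The log2 ratio of the Ces1 sum to the Ces2 and Ces3 sum was 0.18, 0.09, 0.84, 0.71 and -0.47 in Apoe-/- and -0.31, 0.86, -0.82 and -0.28 in Mif-2-/- Apoe-/- libraries. Its spread within a genotype (SD 0.52 and 0.71) exceeded the difference of the means (0.27 and -0.13). The ratio was below 0 only in Apoe-/- replicate 5 and Mif-2-/- Apoe-/- replicates 1, 3 and 4. These libraries had the smallest share of counts in the 10 most abundant genes, and the part of that share in the ratio was not tested. The sums rested largely on Ces1c and Ces3a. In Apoe-/- libraries Ces1c averaged 1348 of 1799 CPM per kb for Ces1, and Ces3a 992 of 1452 for Ces2 and Ces3. In Mif-2-/- Apoe-/- libraries they averaged 668 of 1256 and 948 of 1327. The unequal values described above, of Ces2e against Ces2a and of Ces1c against Ces1d, were within a subfamily.

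Over all 45 pairs of the 10 genes, the ratio within a library did not overlap between the genotypes for 16 pairs. Of all pairs of the 1805 genes at least as abundant as the lowest carboxylesterase, 11.9% did not overlap. Ces2e was in 8 of the 16 pairs, that is, against every other gene but Ces1g, and Ces1d was in 5. The pairs share genes and libraries and are given as a description.

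Per kb of exon, Ces1c (1348 ± 443 CPM per kb; SD, n = 5) and Ces3a (992 ± 264) had the highest levels in Apoe-/- livers, followed by Ces2a, Ces3b, Ces1d, Ces1f, Ces1e, Ces2e, Ces1b and Ces1g. Only the step from Ces3a to Ces2a separated the ranges of neighbours in this order, and Ces2e (61.1 ± 12.2), Ces1b (59.9 ± 13.4) and Ces1g (58.8 ± 21.7) did not differ beyond their spread. Taken within a library, Ces1f was also above Ces1e, and Ces1e above Ces2e, in each of the 5 libraries. The other steps did not hold in every library. In Mif-2-/- Apoe-/- livers the order was Ces3a (948 ± 292; SD, n = 4), Ces1c (668 ± 440), Ces1d (268 ± 103), Ces3b, Ces2a, Ces1f, Ces1b, Ces1e, Ces1g and Ces2e (11.7 ± 3.92), and the ranges of all neighbours overlapped. Within each of the 4 libraries, Ces1c was still above Ces1d, Ces1f above Ces1b, Ces1b above Ces1e, Ces1e above Ces1g and Ces1g above Ces2e. The other steps did not hold in every library. Ces2e was thus in the eighth place in Apoe-/- and in the last in Mif-2-/- Apoe-/- livers, and Ces1d in the fifth and the third.

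As a share of the summed level per kb of the 10 genes, which does not depend on scaling, Ces2e made up 1.91 ± 0.287% with MIF-2 present and 0.453 ± 0.123% in Mif-2-/- Apoe-/- libraries (mean ± SD). Ces1d made up 4.46 ± 1.04% and 10.2 ± 2.92%, and Ces1b 1.87 ± 0.259% and 3.56 ± 1.04%. These shares are set against a sum of which Ces1c and Ces3a were the largest parts, and in CPM the ranges of Ces1d and Ces1b overlapped between the genotypes. Ces1c made up 40.7 ± 8.18% and 25.2 ± 14.6%, with Mif-2-/- Apoe-/- replicate 2 at 46.8%, and overlapped.

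**Figure D4:**
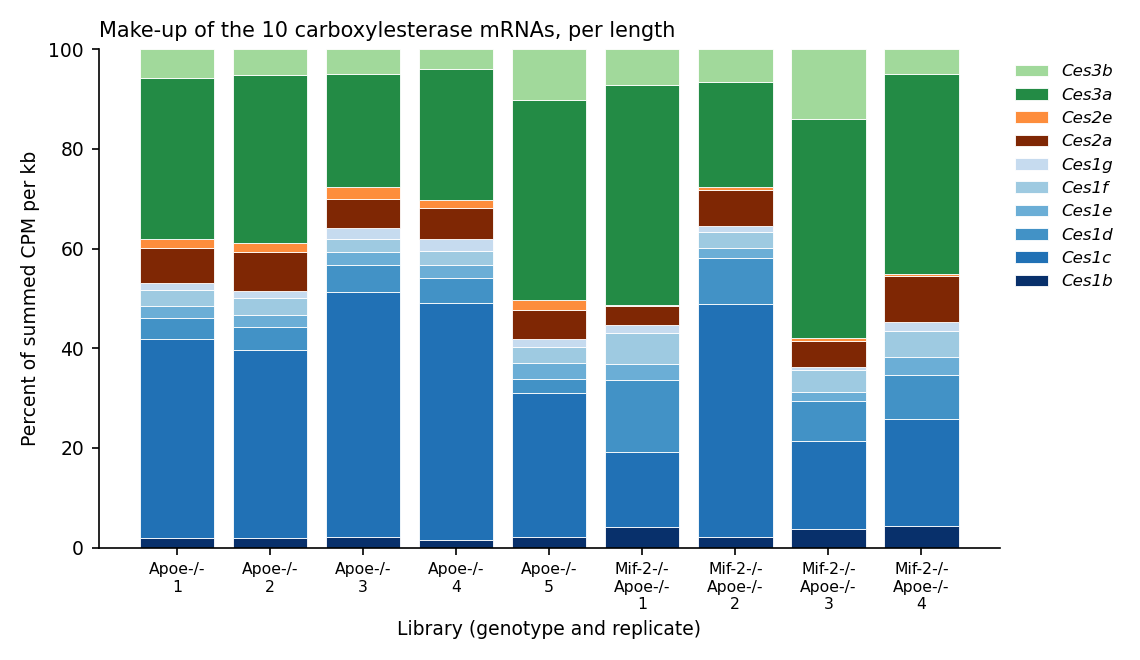
Share of each gene in the summed CPM per kb of the 10 carboxylesterases, as a stacked bar per library. Ces2e (light orange) is a band of 1.57 to 2.34% in the Apoe-/- bars and of 0.354 to 0.625% in the Mif-2-/- Apoe-/- bars, and Ces1d takes 2.79 to 5.44% and 8.19 to 14.5%.

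Of the 10 other genes of the family in the table, 9 were examined, and these were low in the livers. Ces2c, Ces2g and Ces4a passed the filter, and 0 of these 3 were called, with log2 fold changes of 1.09, 0.43 and -0.49 (SE 1.54, 0.69 and 1.45). Ces1a, Ces1h, Ces2b, Ces2f, Ces2h and Ces5a had counts in too few libraries to be tested. Ces2g, which lies beyond Ces2e in the same cluster, was at 13.9 to 48.8 CPM in Apoe-/- and 3.78 to 47.7 CPM in Mif-2-/- Apoe-/- libraries.

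Gene lists that surround the carboxylesterases in lipid and drug metabolism gave the following counts, beside 0.130% of all genes called by edgeR and 4.93% by DESeq2. Of 22 other neutral lipid and ester hydrolases tested, 0 were called by edgeR and 2, Lipa and Pon2, by DESeq2, both higher in Apoe-/- (median 0.52). Of 14 genes of VLDL assembly and lipid droplet turnover, 0 were called by edgeR and 2 by DESeq2, Mttp, which loads lipid onto VLDL, and the droplet coat gene Plin2 (median 0.66). Of 12 classical targets of PPARalpha, the receptor of fatty acids, edgeR called 1, Cyp4a14 (log2 fold change 2.03, SE 0.36, adjusted p = 0.045), and DESeq2 6 (Plin2 again included), all higher in Apoe-/- (median 1.34). Beside Cyp4a14 and Plin2, these were Cyp4a10, Ehhadh, Acot1 and Fgf21. Of these genes, only Cyp4a10 overlapped between the genotypes in CPM. Of 9 classical targets of CAR and PXR, the receptors of foreign compounds, 0 were called by edgeR. DESeq2 called 2 higher in Apoe-/-, Cyp3a11 (292 against 79.8 CPM) and Cyp2c29 (83.7 against 31.0 CPM), and 1 lower, Alas1 (252 against 828 CPM). Cyp3a11 and Cyp2c29 overlapped between the genotypes, and Alas1 did not. Of the 9, 3 had a log2 fold change above 0 and 6 below 0 (median -0.73), and their summed level was 713 to 1561 CPM in Apoe-/- and 1629 to 2537 CPM in Mif-2-/- Apoe-/- libraries, with Por (451 against 837 CPM) and Alas1 as large parts of it. Of 15 receptors and factors known to control carboxylesterase genes, 0 were called by edgeR and 1, Nr1i3, by DESeq2 (median of the list -0.39). Nr1i3, which encodes CAR, was lower in Apoe-/- (mean ± SD 379 ± 128 against 1216 ± 645 CPM, log2 fold change -1.68). Its values overlapped between the genotypes. The part of any of these genes in the carboxylesterase values was not tested.

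A list of 16 clock and clock output genes, 15 of them tested, moved with the genotype. Of all genes, 0.130% were called by edgeR and 4.93% by DESeq2. edgeR called 3, Dbp, Tef and Ciart, and DESeq2 7, these 3 and Per1, Per2, Per3 and Nr1d1, all lower in Apoe-/-, and their summed level was 420 to 514 CPM in Apoe-/- and 1617 to 2371 CPM in Mif-2-/- Apoe-/- libraries. Dbp and Tef encode transcription factors of the daily rhythm that bind the D-box. Their log2 fold changes were -5.42 (SE 0.59, adjusted p = 0.000888) and -2.92 (SE 0.43, adjusted p = 0.0123 by edgeR). The hour at which livers were taken is not given in the sources used here, and the part of these genes in the carboxylesterase values was not tested.

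The D-box letters TTATGTAA were found in the windows of 4 of the 4 Ces1 genes with a RefSeq promoter entry, Ces1b, Ces1c, Ces1e and Ces1g, and of 0 of the 3 Ces2 and Ces3 genes with one, against 0.938% of all windows. The looser form was searched first. The 44 bases around each match (5′ to 3′, minus strand, GRCm38.p6, D-box in capitals) are printed because the factors that bind it differed between the genotypes.
Ces1b: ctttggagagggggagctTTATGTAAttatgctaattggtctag
Ces1c: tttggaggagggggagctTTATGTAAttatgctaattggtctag
Ces1e: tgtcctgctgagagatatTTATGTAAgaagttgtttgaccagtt
Ces1g: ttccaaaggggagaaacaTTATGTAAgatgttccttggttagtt
They lie at chr8:93079999-93080042, chr8:93131352-93131395, chr8:93229675-93229718 and chr8:93337416-93337459. The first base of the match was 84, 94, 81 and 232 bases before the start site, and 7 bases before a second start site of Ces1b. The stretches of Ces1b and Ces1c were nearly the same, within upstream windows that were 94.6% identical over 223 aligned bases. The genes with a match did not share a sign. Their log2 fold changes were -0.61 for Ces1b, 1.01 for Ces1c, 0.23 for Ces1e and 0.72 for Ces1g, with 0 called. Ces1d and Ces1f had no promoter entry. A match is a run of letters and not evidence of binding, and its part in the values of these genes was not tested.

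The summed levels of marker lists for the cell types that a liver section can hold overlapped between the genotypes. Those of pericentral hepatocyte markers were 2693 to 5161 CPM in Apoe-/- and 1952 to 4031 CPM in Mif-2-/- Apoe-/- libraries, and those of periportal markers 2114 to 4395 and 4030 to 6822 CPM, which overlapped narrowly. Kupffer cell and macrophage markers summed to 1294 to 3031 and 1445 to 2110 CPM, endothelial markers to 229 to 341 and 152 to 449 CPM, and stellate and fibroblast markers to 253 to 540 and 272 to 599 CPM. Cholangiocyte markers summed to 91.0 to 306 and 67.4 to 307 CPM, adipocyte markers to 17.0 to 47.4 and 13.7 to 69.3 CPM, and erythroid markers to 99.5 to 320.2 and 59.6 to 218 CPM. edgeR called 0 genes of these lists, where it called 0.130% of all genes and DESeq2 4.93%. DESeq2 called the pericentral marker Oat (588 against 217 CPM) and the macrophage marker Cd5l (470 against 205 CPM) higher in Apoe-/-. It called the periportal markers Sds (485 against 1304 CPM) and Pck1 (834 against 1886 CPM) lower in Apoe-/-, and these 2 did not overlap between the genotypes. Of all 10 periportal markers, 4 had a log2 fold change above 0 and 6 below 0 (median -0.21, beside -0.17 over all genes). Of the 10 pericentral markers, 7 were above 0 and 3 below 0 (median 0.41), and of the 11 macrophage markers 8 and 3 (median 0.39). The part of these genes in the carboxylesterase values was not tested.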

How the data were processed

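Liver RNA was purified on oligo-dT beads from lysates of 3 to 4 pooled frozen sections and sequenced by Smart-seq2 with paired reads of 100 bases. The authors checked, trimmed and aligned the reads with FastQC, cutadapt and HISAT2 (mm10 per the submitters' processing notes, versions not given in the sources used here) and deposited raw counts per gene, read on exons. The kit does not mark strand. The study gives 4 mice per group, and all 9 libraries were used.

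A gene entered the test if 3 or more libraries of 1 genotype had a count of 1 or more for it, and the 10 most abundant were left out. For the 16860 genes left, the quasi-likelihood test of edgeR 4.0.16 was used with TMM factors and Benjamini-Hochberg adjustment. DESeq2 1.42.0 was the alternative tool, under R 4.3.3. It was run on every gene with a count in any library, without the filter above and with the 10 most abundant kept. Other alternatives were TMMwsp and RLE size factors, other filters, the top 10 genes kept, a replicate block and each library left out. With simulated counts of the real spread, 74 of 200 genes changed 4-fold were recovered among 16339 genes, with 7 false calls. The 200 genes were drawn from those with a mean above 10 CPM, so the recovery does not cover genes below that. Exon lengths came from GENCODE M21 and promoters from RefSeq. The members, gene lists and motifs were chosen with earlier results of these data known. All members were named, and of the other lists the genes called by edgeR or DESeq2 and those beside a member's result.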

Additional observations from a re-analysis of the deposited data

Results flagged for a closer look

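Ces1d in Apoe-/- replicate 5 was at 136 CPM, far below the other 4 Apoe-/- libraries at 375 to 445 CPM, with a gap of 0.774 of the group's range. It was the only one of 20 groups of libraries (10 genes in 2 genotypes) that stood out in this way, and chance flags about 1 in 20. The same library was lowest of its genotype for 8 of the 10 carboxylesterases. Without it the log2 fold change of Ces1d was -0.65 instead of -0.85.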

How the results depend on the processing

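Ces2e was called under all 16 alternatives, with log2 fold changes of 2.28 to 2.73 and adjusted p from 2.71e-12 to 0.0443. The count of genes called depended far more on the processing. It was 22 (10 higher and 12 lower in Apoe-/-), 724 with DESeq2 (345 and 379), and 9 to 262 when 1 library was left out, the highest without Mif-2-/- Apoe-/- replicate 2, 126 without Apoe-/- replicate 5, 9, 11, 14 and 11 without Apoe-/- replicates 3, 1, 2 and 4 and 13 without Mif-2-/- Apoe-/- replicate 3. With the replicate number as a block, 560 genes (329 and 231) were called, and of the carboxylesterases 2, Ces2e and Ces1c (1.42, adjusted p = 0.0326). Same-numbered libraries did not deviate together (r from -0.01 to 0.12 over 4 pairs). Of the 4 Mif-2-/- Apoe-/- libraries, 0 were closest to their own number. These correlations cannot tell whether same-numbered libraries share more than a number. Apoe-/- replicate 5 has no partner of its number, so the block fit draws no comparison from it. Leaving out 1 library gave 1 called carboxylesterase each time, medians of -0.22 to 0.14 for Ces1 and of 0.12 to 0.40 for the Ces2 and Ces3 genes. Of 160 values of single genes, 153 kept their sign and side of the threshold, and 6 near 0 changed sign. These were Ces3b with TMMwsp (0.066) and without single libraries (-0.25 to 0.075 over the 9 fits), Ces3a without single libraries (-0.013 to 0.28) and Ces1e without single libraries (-0.00012 to 0.46). TMMwsp moved the median of all genes from -0.17 to 0.0015. The causes were not tested. The biological coefficient of variation was 0.909, which limits what 9 libraries can resolve.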
